A study of Mus musculus with 26 samples.

Results

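The integrin and laminin genes are the subunits of the main matrix receptors of animal cells and of the basement membrane proteins that several of those receptors bind. They were taken by gene name: every array name made of Itga or Itgb, or of Lama, Lamb or Lamc, and its subunit letters or number, without the genes of integrin-binding proteins. The rule gave 39 genes, of which 18 encode integrin alpha chains, 10 carry an integrin beta name and 11 encode laminin chains. It also took Itgbl1, which encodes a secreted protein related to beta chains and not a receptor subunit. The expression array carried 38 of them and 30 entered the tests, among 17310 genes tested. The promoter arrays gave a value for 33 of them, among 15125 promoters, and 26 had both a promoter value and an expression test.

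The study set induced pluripotent stem (iPS) cells against embryonic stem (ES) cells and mouse embryonic fibroblasts (MEFs). Trimethylated lysine 4 of histone H3 (H3K4me3) and trimethylated lysine 27 (H3K27me3) were mapped on promoter arrays in 5 cell lines: the ES lines E14 and V6.5, the male MEF1 and female MEF2 fibroblast lines, and 1 iPS line. Expression arrays, 2 for each, covered female MEFs, the iPS cells and V6.5 ES cells, which are labelled feeder-dependent. No treatment, transgene, passage or animal age stands in the labels, which also do not say how the iPS line was made, whether it is 1 clone, or whether a duplicate RNA array came from a separate culture. The p-values for RNA therefore measure the spread between arrays, which may be technical, and those for the marks rest on 2 ES lines, 2 MEF lines and 1 iPS line.

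Integrins are heterodimers of an alpha and a beta chain that span the plasma membrane, bind matrix proteins or counter-receptors outside the cell and anchor the actin cytoskeleton through a plaque of adaptor proteins inside it. Laminins are trimers of an alpha, a beta and a gamma chain that assemble into the sheet of the basement membrane. The alpha chain of a laminin sets which receptors it binds, and laminins with the alpha 1 or alpha 5 chain are typical of early embryos and epithelia, while the alpha 2 and alpha 4 chains are typical of mesenchyme, muscle and vessels. H3K4me3 marks active and poised promoters, and H3K27me3 is deposited by Polycomb proteins at promoters of silent developmental genes.

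An RNA level is given below as log2 of the signal relative to the 75th percentile of its array, and levels are compared between samples only, never between genes. A gene was called when its adjusted p in limma, over all genes tested, was under 0.05 and its difference at least 2-fold. The duplicate MEF array stood apart, with 86.7% of its probes well above background against 46.4% on the first MEF array and a correlation of 0.781 between them, while the ES pair correlated at 0.978 and the iPS pair at 0.992. Pou5f1, which encodes a pluripotency factor, was at 4.89 and 4.58 on the ES arrays, 4.83 on the first iPS array, -4.64 on the first MEF array and -0.63 on the duplicate MEF array. The spots filed under ES in the scanner files hold the values of the MEF columns of the deposited value table, and the reverse. The value table was followed, in which all 10 pluripotency markers were lower and all 12 fibroblast markers higher in MEFs than in ES cells. In bulk RNA, fewer cells of a type and less RNA per cell cannot be told apart.

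The laminin chains of MEFs and ES cells differed in both directions. Of 9 laminin genes tested, 3 were higher in MEFs than in ES cells (Lama2, Lama4 and Lamb2), 5 were lower (Lama1, Lama3, Lama5 and Lamc1 among them) and Lamb1 was not called. Over all genes tested, 15.5% were called higher and 17.3% lower. Lama5, which encodes the alpha 5 chain of epithelial and early embryonic basement membranes, was at 4.27 and 4.34 on the ES arrays, 0.00 and -0.40 on the MEF arrays and 3.42 and 3.27 on the iPS arrays. The ES and iPS arrays all lay above both MEF arrays. The difference between MEFs and ES cells was -4.50 ± 0.40 (log2, SE, n = 2 arrays a group), a 22.6-fold lower level, with an adjusted p of 0.000978 in limma.

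Lama3, whose alpha 3 chain belongs to the anchoring laminins of epithelia, was at -1.08 and -1.17 in ES cells and -0.68 and -0.58 in iPS cells. In MEFs its probe read -5.23 and -6.12 and was not well above background on either array. It was therefore at least 5.91-fold higher in ES cells (adjusted p = 0.00122 in limma), the bound being set by the dimmest signal that still counted as well above background. Another, dimmer Lama3 probe differed by 0.60 in the other direction.

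Lama1 encodes the alpha 1 chain of the first embryonic basement membranes. It was at 0.72 and 0.20 in ES cells, -0.87 and -2.41 in MEFs and -2.36 and -2.38 in iPS cells, so that ES cells stood above both other groups. Lamc1, the gamma 1 chain found in most laminins, was lower in MEFs by a smaller step, at 3.67 and 2.84 against 4.68 and 4.87 in ES cells (-1.52 ± 0.45, adjusted p = 0.0408 in limma), a call that was lost with the slide as a block. Lamc1 was at 3.75 and 3.88 in iPS cells, below both ES arrays and with a mean nearer to that of MEFs. Between MEFs and ES cells, markers of epithelium moved the same way: 4 of 8 were lower and none higher in MEFs. The summed signal of these markers, relative to the 75th percentile, was 62.7 and 81.3 on the ES arrays, 1.39 and 5.14 on the MEF arrays and 115 and 118 on the iPS arrays. The sum was thus highest in iPS cells, where Lama1 and Lamc1 lay below their ES levels. The part of epithelial cells in the laminin results was not tested.

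The alpha chains of mesenchymal laminins ran the opposite way. Lama4 was at -1.79 and -2.31 in ES cells, 3.04 and 2.53 in MEFs and -2.50 and -2.32 in iPS cells. Both MEF arrays lay far above the other 4, and the difference between MEFs and ES cells was 4.83 ± 0.43, or 28.5-fold (adjusted p = 0.00101 in limma). Its 3 other measurable probes gave differences of 5.99, 5.27 and 4.93.

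Lama2, the alpha 2 chain of muscle and nerve laminins, read -1.68 and -1.18 in MEFs, and was not well above background on the ES arrays (-6.06 and -5.51) or in iPS cells (-5.78 and -5.30). It was at least 7.44-fold higher in MEFs than in ES cells, with an adjusted p of 0.00126 in limma. Lamb2, the beta 2 chain that can replace beta 1, was at -0.38 and 0.17 in ES cells, 2.93 and 2.49 in MEFs and -0.62 and -0.49 in iPS cells (MEF minus ES 2.81 ± 0.43, adjusted p = 0.00398 in limma). Lamb1 was at 3.50 and 3.04 in ES cells, 4.79 and 3.88 in MEFs and 2.06 and 1.87 in iPS cells. Its groups did not overlap, but between MEFs and ES cells it did not pass the test (adjusted p = 0.131 in limma).

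Among the integrin alpha genes, 6 of 14 tested were higher in MEFs than in ES cells, 3 were lower and 5 were not called. Itga6 and Itga3 encode the alpha chains of the classical laminin receptors, and both were lower in MEFs. Itga6 was at 2.70 and 2.48 in ES cells, -2.34 and -0.96 in MEFs and 2.22 and 2.39 in iPS cells. The difference was -4.24 ± 0.54, an 18.9-fold lower level in MEFs (adjusted p = 0.00226 in limma), and its 2 other measurable probes differed by -3.03 and -4.00.

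Itga3 was at 0.93 and 0.87 in ES cells, -2.11 and -1.09 in MEFs and -0.44 and -0.06 in iPS cells (MEF minus ES -2.50 ± 0.48, adjusted p = 0.00963 in limma). Its iPS arrays lay between the other groups, and its other probes disagreed, at -1.40 and 1.08. Itga7, a laminin receptor chain best known from muscle, moved the other way by 1.40 ± 0.43 (adjusted p = 0.0464 in limma), a call that was lost with the slide as a block. It was at -2.72 and -2.22 in ES cells, -1.34 and -0.81 in MEFs and -2.71 and -2.73 in iPS cells. Of 6 muscle markers tested 4 were higher and none lower in MEFs, where 15.5% and 17.3% of all genes tested were. The summed signals were 69.8 and 74.1 on the ES arrays, 448 and 225 on the MEF arrays and 35.9 and 26.3 on the iPS arrays. Among these markers Myog was not well above background in ES cells or MEFs, and Myod1 did not enter the tests. The part of muscle cells in the Itga7 and Lama2 results was not tested. Endothelial markers (2 of 6 tested lower) summed to between 0.462 and 3.29 over the 6 arrays, and neural and Schwann cell markers (3 of 6 lower) to between 3.76 and 12.5.

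Itga11, Itga8, Itgav and Itga4 were also higher in MEFs. Itga11, which encodes a fibrillar collagen receptor chain of mesenchymal cells, was at 0.80 and 1.58 in ES cells, 5.70 and 4.28 in MEFs and -0.47 and -0.69 in iPS cells. The MEF arrays lay above all others by a difference of 3.80 ± 0.59 from ES cells (adjusted p = 0.00428 in limma). Itga8, whose chain binds nephronectin and other ligands with an RGD motif, was at -3.14 and -3.39 in ES cells, 0.47 and -0.80 in MEFs and -3.60 and -3.44 in iPS cells (3.10 ± 0.52, adjusted p = 0.00587 in limma).

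Itgav, the alpha chain of the vitronectin receptors, was at -1.29 and -1.90 in ES cells, 0.70 and 0.73 in MEFs and -1.44 and -1.38 in iPS cells (2.31 ± 0.41, adjusted p = 0.00747 in limma). Itga4, which pairs with beta 1 or beta 7 and binds fibronectin and Vcam1, was at -3.58 and -3.73 in ES cells, -2.34 and -0.79 in MEFs and -4.31 and -4.78 in iPS cells (2.09 ± 0.59, adjusted p = 0.0352 in limma). It was well above background on 1 of the 2 ES arrays. None of its 5 other probes was measurable, that is, well above background on both arrays of a group.

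Itga1, a collagen receptor chain, had 1 iPS spot far from all others. Its tested probe, the brightest of 4 over all arrays, read -4.92 and -5.60 in ES cells, -1.48 and -1.31 in MEFs, and -5.85 and 1.51 on the 2 iPS arrays. The reading of 1.51 entered the mean by which this probe was picked, and without that array another probe was the brightest. No background flags could be matched to the duplicate iPS array. The gene was not called (adjusted p = 0.194 in limma), although its 2 other measurable probes differed by 3.20 and 5.03. With the mean of its kept probes in place of the brightest, the difference was 4.03 and was called. Its difference of iPS cells from MEFs, -0.77, was 2.91 without the first iPS array and -6.04 without the duplicate, and that from ES cells, 3.09, was 6.77 and -1.01. The brightest probe was picked anew in each fit, and without the duplicate it was another of the 4. That probe read -5.64 and -4.54 in ES cells, 1.18 and -1.29 in MEFs and -6.10 on the first iPS array. The values with and without the duplicate therefore come from different probes.

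Itga5, the alpha chain of the main fibronectin receptor, was at 1.79 and 1.26 in ES cells, 1.65 and 2.07 in MEFs and -0.11 and 0.01 in iPS cells. Its ES and MEF arrays overlapped and its iPS arrays lay below both. Itga9, whose chain binds tenascin C and other ligands, was at -1.31 and -0.33 in ES cells, -0.01 and -0.36 in MEFs and -2.10 and -1.99 in iPS cells, the same order. Itga2b and Itgal, the remaining alpha genes tested, were not called in any comparison.

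Of 7 genes with an integrin beta name, 3 were higher in MEFs than in ES cells and 1 was lower. Itgb1, the beta chain shared by most matrix receptors, was at 1.97 and 0.41 in ES cells, 2.97 and 2.76 in MEFs and 1.44 and 1.60 in iPS cells. The difference of 1.68 ± 0.57 between MEFs and ES cells did not pass the test (adjusted p = 0.0654 in limma). The other measurable Itgb1 probe differed by 1.87, and with the mean of its kept probes Itgb1 was called. Itgb5, a beta chain that pairs with alpha v, was at 3.39 and 3.97 in ES cells, 5.88 and 4.93 in MEFs and 2.88 and 2.76 in iPS cells, and was called (1.73 ± 0.49, adjusted p = 0.0359 in limma).

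Itgb3, another partner of alpha v, was at 0.44 and 0.73 in ES cells, 2.34 and 1.43 in MEFs and -0.22 and -0.35 in iPS cells. Its groups did not overlap, the difference from ES cells did not pass (adjusted p = 0.0722 in limma), and its other probe differed by -0.90. Itgbl1 was not well above background in ES cells (-5.58 and -5.61) or iPS cells (-6.50 and -6.63) and read 1.61 and 0.44 in MEFs. It was at least 40.8-fold higher in MEFs than in ES cells (adjusted p = 0.000806 in limma).

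Itgb4, the beta partner of alpha 6 in the hemidesmosomes of epithelia, was at 1.04 and 1.94 in ES cells, 0.44 and -0.15 in MEFs and 0.95 and 0.95 in iPS cells. Its difference of -1.34 ± 0.48 did not pass (adjusted p = 0.0734 in limma), while its partner Itga6 did.

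**Figure D1:**
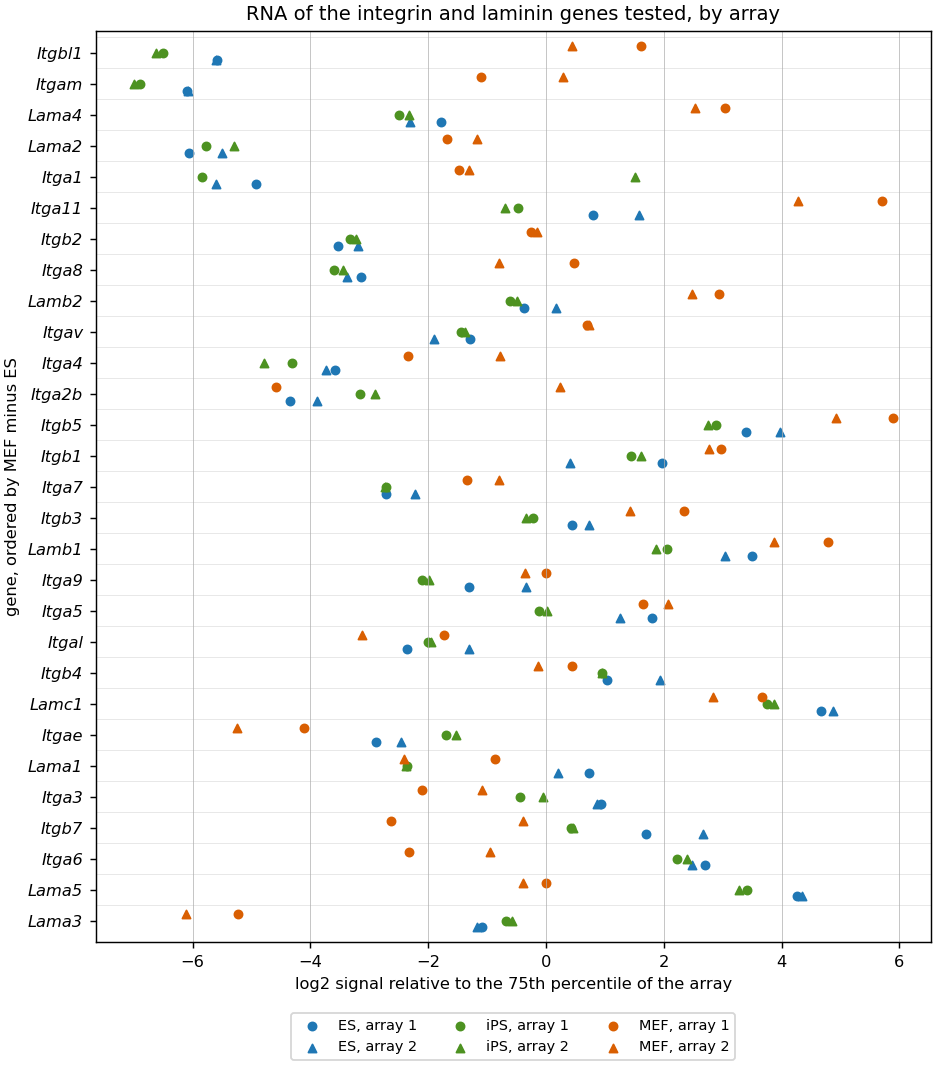
RNA of 29 integrin and laminin genes tested, on each of 6 arrays. The x axis is the log2 signal relative to the 75th percentile of the array, genes are ordered by MEF minus ES, circles are first arrays and triangles duplicates. The ES and iPS points lie together for most genes, on the far side from the MEF points. Lama1, Lamc1, Itga5 and the isolated iPS point of Itga1 are among the exceptions.

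The integrins of leukocytes were read with markers of their cells. Itgam, the alpha M chain of the complement receptor of macrophages and granulocytes, was not well above background in ES cells (-6.10 and -6.08) or iPS cells (-6.89 and -7.00) and read -1.11 and 0.29 in MEFs, at least 15.1-fold above ES cells (adjusted p = 0.0011 in limma). Itgb2, the beta chain shared by the leukocyte integrins, was at -3.54 and -3.20 in ES cells, -0.26 and -0.15 in MEFs and -3.33 and -3.23 in iPS cells, a difference of 3.16 ± 0.39 (adjusted p = 0.00204 in limma). Both MEF arrays lay above all others for either gene.

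Markers of macrophages and leukocytes moved with them. Of 16 such markers 14 were tested, 10 were higher and 1 (Laptm5) lower in MEFs than in ES cells. Their summed signal, relative to the 75th percentile, was 3.92 and 4.59 on the ES arrays, 120 and 72.9 on the MEF arrays and 3.30 and 3.36 on the iPS arrays. Ptprc, Adgre1, C1qa and Tyrobp were not well above background in ES or iPS cells, and no tested marker was below background on both MEF arrays. Lyz2, the macrophage lysozyme gene, was at 6.62 and 5.77 in MEFs against -0.36 and -0.53 in ES cells. The part of these cells in the Itgam and Itgb2 results was not tested.

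Itgb7 and Itgae encode the alpha E beta 7 receptor of mucosal lymphocytes, whose ligand is E-cadherin, and they ran against Itgam and Itgb2. Itgb7 was at 1.70 and 2.67 in ES cells, -2.64 and -0.40 in MEFs and 0.43 and 0.46 in iPS cells (-3.70 ± 0.77, adjusted p = 0.0126 in limma). Itgae was at -2.89 and -2.46 in ES cells and -1.71 and -1.53 in iPS cells and was not well above background in MEFs, so that it was at least 2.02-fold higher in ES cells (adjusted p = 0.025 in limma). For both genes every ES and iPS array lay above both MEF arrays.

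In all, 12 of the 30 genes tested were called higher and 9 lower in MEFs than in ES cells, against the 15.5% and 17.3% of all genes. Their median difference was 1.35, against -0.11 over all genes tested. The 8 members that did not enter the tests were Itga2, Itga10, Itgax, Itgb2l, Itgb6, Itgb8, Lamb3 and Lamc3: of their 17 probes, 12 were well above background on the duplicate MEF array alone and 5 on no array. The sign was the same on both slides for all 21 genes called, each slide holding 1 array of every group. Without the duplicate MEF array 23 genes were called, among them all 21. Without the first ES array 11 were called, 10 of them shared, and without the duplicate ES array 11, all shared. Itga11 and Itgb7 were among those lost in one or both cases. Of 9 called genes with another measurable probe, 6 had all such probes in the same direction, and the exceptions included Itga3 and Lama3.

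Most of the genes tested differed between iPS cells and MEFs. Against MEFs, 5 of the 30 genes were called higher in iPS cells (among them Itga6, Itgae, Lama3 and Lama5) and 16 lower, where 17.8% and 16.7% of all genes tested were. The iPS cells and ES cells were both compared with the same MEF arrays, so the 2 comparisons are not independent. Lama4 differed by -5.20 ± 0.43 (adjusted p = 0.000561 in limma) and Itga11 by -5.57 ± 0.59 (adjusted p = 0.000994 in limma). The Lama3 level of iPS cells was at least 8.35-fold above that of MEFs and Itgbl1 at least 58.8-fold lower.

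The genes lower in iPS cells than in MEFs included Itga5 (-1.91 ± 0.42, adjusted p = 0.0148 in limma), Itga9 (-1.86 ± 0.47, adjusted p = 0.0244 in limma), Itgb3 (-2.17 ± 0.46, adjusted p = 0.0129 in limma) and Lamb1 (-2.37 ± 0.47, adjusted p = 0.0102 in limma), which were not called between MEFs and ES cells. Whether the 2 contrasts differ for them is the comparison of iPS with ES cells, and none was called there. Without the duplicate iPS array 13 genes were called against MEFs, 12 of them shared.

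Between iPS and ES cells none of the 30 genes was called in limma, where 0.15% of all genes tested were, and 6 had an unadjusted p under 0.05. Of 27 genes whose ES and MEF means lay at least 1 log2 unit apart, the iPS mean was nearer to the ES mean for 23. This count was not made over all genes, so it cannot set these members apart. The widest gap with arrays in accord was that of Lama1, at -2.36 and -2.38 in iPS cells against 0.72 and 0.20 in ES cells (-2.83 ± 0.59, adjusted p = 0.114 in limma). Itga11 (-1.77 ± 0.59), Itgb7 (-1.74 ± 0.77) and Itga5 (-1.58 ± 0.42) followed, all lower in iPS cells. A fit of the iPS and ES arrays alone, without the widely spread MEF pair, called 6 genes, all lower in iPS cells: Itga3, Itga5, Itga11, Itgb7, Lama1 and Lamb1. The same fit called 2736 of 16573 genes tested, so the rise was not particular to these members. Calls over all genes also rose in the fits that follow. Leaving out the duplicate MEF array called the same 6, and leaving out the first MEF array called 4 (Itga5, Itga11, Itgb7 and Lama1).

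Summed signals of markers of other cells also differed between these ES and iPS arrays, though few single markers were called. Extraembryonic endoderm, the lineage that secretes the alpha 1 laminin of Reichert's membrane, was followed by 11 markers, 9 of them tested. Their summed signal was 8.08 and 10.7 on the ES arrays, 19.4 and 11.8 on the MEF arrays and 1.50 and 1.38 on the iPS arrays. The MEF sums were the highest, but the list as a whole was not higher in MEFs. Against ES cells 1 of the 9 was called higher and 2 lower, where 15.5% and 17.3% of all genes tested were. The median difference was -0.82. Cubn was the only marker of this list called between iPS and ES cells, where 0.15% of all genes tested were. It was lower in iPS cells (-4.84 ± 0.48, adjusted p = 0.0357 in limma). Gata6 (-2.85 ± 0.43), Dab2 (-3.35 ± 0.44) and Foxa2 (-2.65 ± 0.50) were not called. Afp and Hnf4a were not well above background in ES cells, and Gata4 and Ttr did not enter the tests. The 12 fibroblast markers summed to 74.4 and 95.5 on the arrays of the feeder-dependent ES cells and 26.2 and 23.3 on the iPS arrays, against 1313 and 679 in MEFs. None of the 12 was called between iPS and ES cells. The part of these cells in the Lama1, Itga11 and Lamb1 values was not tested.

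The partners of these receptors were followed with 3 lists. Of 28 adhesion plaque genes tested, which link integrins to actin, 9 were higher and none was lower in MEFs than in ES cells. Over all genes tested 15.5% were higher and 17.3% lower. The median difference of the list was 0.83, against the same -0.11 over all genes tested. The widest belonged to Nedd9, a scaffold protein (4.15 ± 0.43, with 1 of the 2 ES arrays well above background), Tgfb1i1, a paxillin relative (3.67 ± 0.42), Parva, the actin-binding partner of integrin-linked kinase (3.13 ± 0.40), and Zyx, the gene of zyxin (2.58 ± 0.50). Tgfb1i1 was at 1.01 and 1.17 in ES cells, 5.05 and 4.46 in MEFs and -0.65 and -0.80 in iPS cells, with the MEF arrays above all others.

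Of 19 genes of integrin ligands other than laminins, 10 were higher and 3 lower in MEFs, with a median difference of 1.80. Over all genes tested 15.5% were higher and 17.3% lower. Fbln5, an elastic fibre protein, differed by 6.49 ± 0.49, Postn, a matrix protein of mesenchyme, by 5.43 ± 0.47, and Vcam1, the counter-receptor of alpha 4 integrins, by 4.90 ± 0.45. Cdh1, E-cadherin and the ligand of alpha E beta 7, ran the opposite way by -5.58 ± 0.69. Cdh1 was at 4.18 and 4.01 in ES cells, -2.54 and -0.44 in MEFs and 3.48 and 3.39 in iPS cells, with both MEF arrays lowest, as for Itgb7 and Itgae.

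Of 18 basement membrane partners and laminin receptors outside the integrins, 4 were higher and 3 lower in MEFs. These shares were near the 15.5% and 17.3% of all genes tested, and the median difference was 0.46. Col4a5, a type IV collagen chain (4.31 ± 0.43, with 1 of the 2 ES arrays well above background), and Sparc, a collagen-binding matrix protein (at least 6.91-fold, both MEF arrays being saturated), were higher. Col18a1, the core of a basement membrane proteoglycan, was lower (-3.08 ± 0.57), as was Bcam, a receptor of the alpha 5 laminin chain (adjusted p = 0.0159 in limma). Bcam was at 1.18 and 0.35 in ES cells, -5.62 and -2.21 in MEFs and -1.21 and -0.92 in iPS cells, which placed the iPS arrays between the others. Since it was well above background on 1 of the 2 MEF arrays, no size is given for its difference. Between iPS and ES cells no gene of the 3 lists was called, where 0.15% of all genes tested were.

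A promoter value is the mean log2 ratio of immunoprecipitate over input of the probes within 1000 bp of the estimated start, and a promoter was called at an adjusted p under 0.05 in limma over all promoters. Promoters of Itga10, Itgb2, Itgb8, Lama3, Lama5 and Lamb2 were not analysed here. For H3K4me3, 4 of 33 promoters were called between MEF and ES lines, where 5.14% of all promoters were. Among them were Lama2 and Lama4, higher in the MEF lines, and Itgb4, lower.

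Lama2 was at 0.55 in E14, 0.60 in V6.5, 1.91 in MEF1, 1.80 in MEF2 and 0.57 in the iPS line. The iPS value fell between those of the ES lines, and the MEF lines lay 1.28 ± 0.21 higher (adjusted p = 0.00731 in limma). It was the only one of the 33 whose MEF lines both lay at least 1 log2 unit from both ES lines, a separation that 2.39% of all promoters had. Lama2 lost it with 500 bp either side of the start in place of 1000, and with the median of probes 2 promoters had it. All 12 of its probes within 1000 bp of the start read higher in both MEF lines than in both ES lines, and 25 of its 33 probes in all.

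The mark also reached further into the gene in MEFs. The widest probe difference of Lama2, 2.75, lay 1236 bp inside the gene, where the MEF lines averaged 2.69, the ES lines -0.06 and the iPS line -0.02. Lama4 was at 1.01 in E14, 0.76 in V6.5, 1.73 in MEF1, 1.91 in MEF2 and 0.92 in the iPS line (0.94 ± 0.22, adjusted p = 0.0376 in limma), and its widest probe difference, 3.05, lay 2174 bp inside the gene. There the ES lines averaged -0.25 and the iPS line read 0.73.

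Itgb4 was at 0.88 in E14, 1.06 in V6.5, 0.07 in MEF1, -0.04 in MEF2 and 0.85 in the iPS line (-0.95 ± 0.21, adjusted p = 0.0304 in limma). Its ES and iPS lines lay above both MEF lines. Itgb7 (-0.88 ± 0.24, adjusted p = 0.0733) and Itga1 (0.75 ± 0.21, adjusted p = 0.0749) missed the threshold in limma. Scan day and line coincide for the ES and MEF promoter arrays and cannot be told apart. Both iPS arrays for H3K27me3 and array 2 of the iPS set for H3K4me3 were scanned on the day of an ES line. Array 1 of that H3K4me3 set was scanned on the day of MEF2. The part of scan day in the nearness of the iPS line to the ES lines was not tested. Without MEF1 none of the 4 was called, and without MEF2 or V6.5 only Lama2 was.

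**Figure D2:**
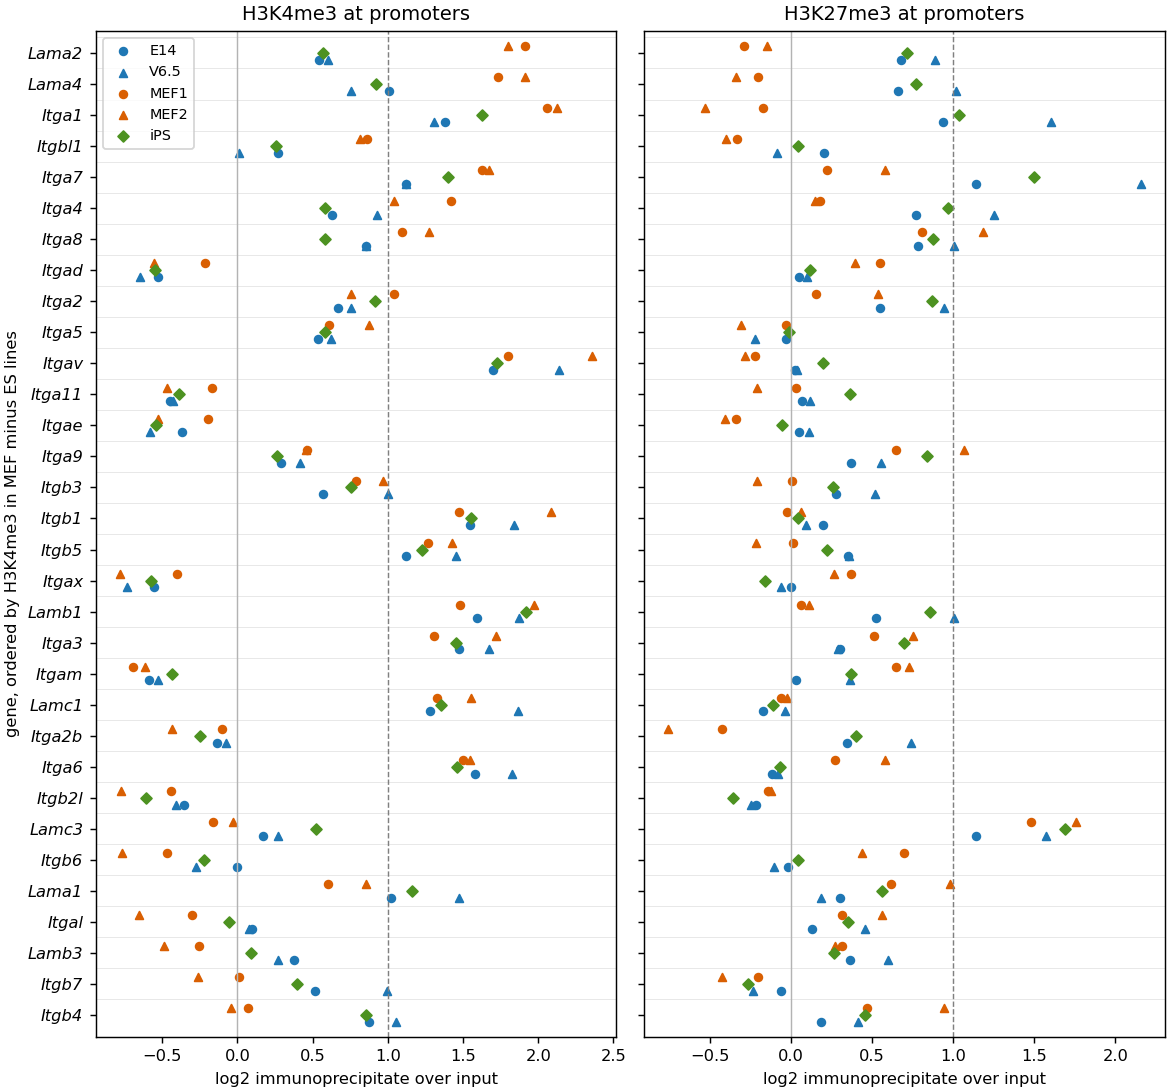
H3K4me3 and H3K27me3 at 32 promoters, 1 point per cell line. The x axes are the promoter's log2 ratio of immunoprecipitate over input, genes are ordered by H3K4me3 in MEF minus ES lines, and the dashed line marks a log2 ratio of 1. Lama2 and Lama4 have the MEF points far right for H3K4me3 and left for H3K27me3, with the iPS point among the ES points.

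For H3K27me3, 6 of 33 promoters were called between MEF and ES lines, where 12.3% of all promoters were: Itga1, Itga2b, Itga4, Lama2 and Lama4 were lower in the MEF lines and Itgb6 was higher. Itga1 was at 0.94 in E14, 1.60 in V6.5, -0.17 in MEF1, -0.53 in MEF2 and 1.04 in the iPS line (-1.62 ± 0.26, adjusted p = 0.0284 in limma). All 9 of its probes near the start read lower in both MEF lines than in both ES lines. It was the only member with both MEF lines at least 1 log2 unit from both ES lines, which 1.79% of all promoters were, and that separation was lost with another background correction (normexp).

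Lama4 was at 0.66 in E14, 1.02 in V6.5, -0.21 in MEF1, -0.34 in MEF2 and 0.77 in the iPS line (-1.11 ± 0.16, adjusted p = 0.0257 in limma). Lama2 was at 0.68 in E14, 0.89 in V6.5, -0.29 in MEF1, -0.15 in MEF2 and 0.72 in the iPS line (-1.0 ± 0.14, adjusted p = 0.0252 in limma). The 2 mesenchymal laminin genes thus carried more H3K4me3 and less H3K27me3 in both MEF lines than in either ES line, with the iPS line between the ES lines for H3K27me3.

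Itga2b, the alpha chain of the platelet fibrinogen receptor, was at 0.34 in E14, 0.74 in V6.5, -0.42 in MEF1, -0.76 in MEF2 and 0.40 in the iPS line (-1.13 ± 0.20, adjusted p = 0.0318 in limma). Itga4 was at 0.77 in E14, 1.25 in V6.5, 0.18 in MEF1, 0.15 in MEF2 and 0.97 in the iPS line (-0.85 ± 0.19, adjusted p = 0.0484 in limma). Itgb6, a beta chain of epithelial receptors that activate TGF-beta, was at -0.02 in E14, -0.11 in V6.5, 0.69 in MEF1, 0.44 in MEF2 and 0.04 in the iPS line (0.63 ± 0.14, adjusted p = 0.0484 in limma). The values of E14 were compressed: the median absolute deviation of its H3K27me3 arrays was 0.291 and 0.289, against 0.417 to 0.712 on the others. With every line scaled to the same spread, 5104 of all 15125 promoters were called, against 1858 in the main fit. All 6 calls were lost without V6.5, without MEF1 or without MEF2, and 19 promoters were called when every line was scaled to the same spread.

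The promoter sequences of the 2 genes whose lines stood apart are shown because they differ in base composition, a feature that often goes with both marks. They are the 250 bases before the RefSeq start (build GRCm38.p6, minus strand), printed 5′ to 3′ with each CG in capitals. Lama2 lies at chr10:27616943-27617192 and Itga1 at chr13:115101965-115102214.
Lama2: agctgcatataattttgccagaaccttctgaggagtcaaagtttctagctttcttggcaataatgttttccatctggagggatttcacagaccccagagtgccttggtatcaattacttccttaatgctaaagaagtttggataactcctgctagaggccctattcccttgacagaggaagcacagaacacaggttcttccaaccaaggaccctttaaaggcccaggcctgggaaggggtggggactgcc
Itga1: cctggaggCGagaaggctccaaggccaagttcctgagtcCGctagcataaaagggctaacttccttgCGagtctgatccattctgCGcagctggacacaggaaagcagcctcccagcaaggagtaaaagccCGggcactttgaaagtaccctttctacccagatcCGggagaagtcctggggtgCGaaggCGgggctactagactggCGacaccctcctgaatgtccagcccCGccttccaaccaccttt
The Lama2 stretch held no CG and had a GC content of 47.2%, and that of Itga1 held 10 CG and had 57.6%. RefSeq promoters were matched for 25 members, with a median of 10 CG and 57.6% GC, against 6 and 52.0% over 27025 genes with 1 promoter each. The letters GGGCGG, searched on both strands, were in 9 of the 25 (36.0%) and in 32.9% of all genes, and TATAAA, on both strands, in none of the 25 and in 13.0% of all genes. Neither promoter shown held GGGCGG or TATAAA.

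Single array probes upstream of the start show how far apart the lines read at 1 spot. The probes with the widest difference among those up to 1000 bp upstream were picked after their values were seen.
Lama2 probe: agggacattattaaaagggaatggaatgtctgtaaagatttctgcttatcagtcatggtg
Itga1 probe: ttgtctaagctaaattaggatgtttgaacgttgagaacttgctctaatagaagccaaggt
Lama4 probe: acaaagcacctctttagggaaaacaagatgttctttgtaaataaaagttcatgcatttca
Itgb4 probe: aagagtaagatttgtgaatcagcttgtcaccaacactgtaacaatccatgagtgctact
The Lama2 probe, on chromosome 10 and centred 694 bp upstream, had an H3K4me3 log2 ratio of 0.96 in E14, 0.70 in V6.5, 1.95 in MEF1, 1.70 in MEF2 and 0.87 in the iPS line. The Itga1 probe, on chromosome 13 and 434 bp upstream, had an H3K27me3 log2 ratio of 1.50 in E14, 2.40 in V6.5, -0.63 in MEF1, -0.45 in MEF2 and 1.10 in the iPS line. In both, the iPS line lay on the side of the ES lines.

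The Lama4 probe, on chromosome 10 and 534 bp upstream, had an H3K27me3 log2 ratio of 1.01 in E14, 1.28 in V6.5, -0.95 in MEF1, -0.85 in MEF2 and 0.87 in the iPS line. The Itgb4 probe, on chromosome 11 and 452 bp upstream, had an H3K4me3 log2 ratio of 2.12 in both ES lines, 0.99 in MEF1, 0.63 in MEF2 and 2.11 in the iPS line. Genome positions of the probes are not printed, since the sources used here name no build for the array coordinates.

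**Figure D3:**
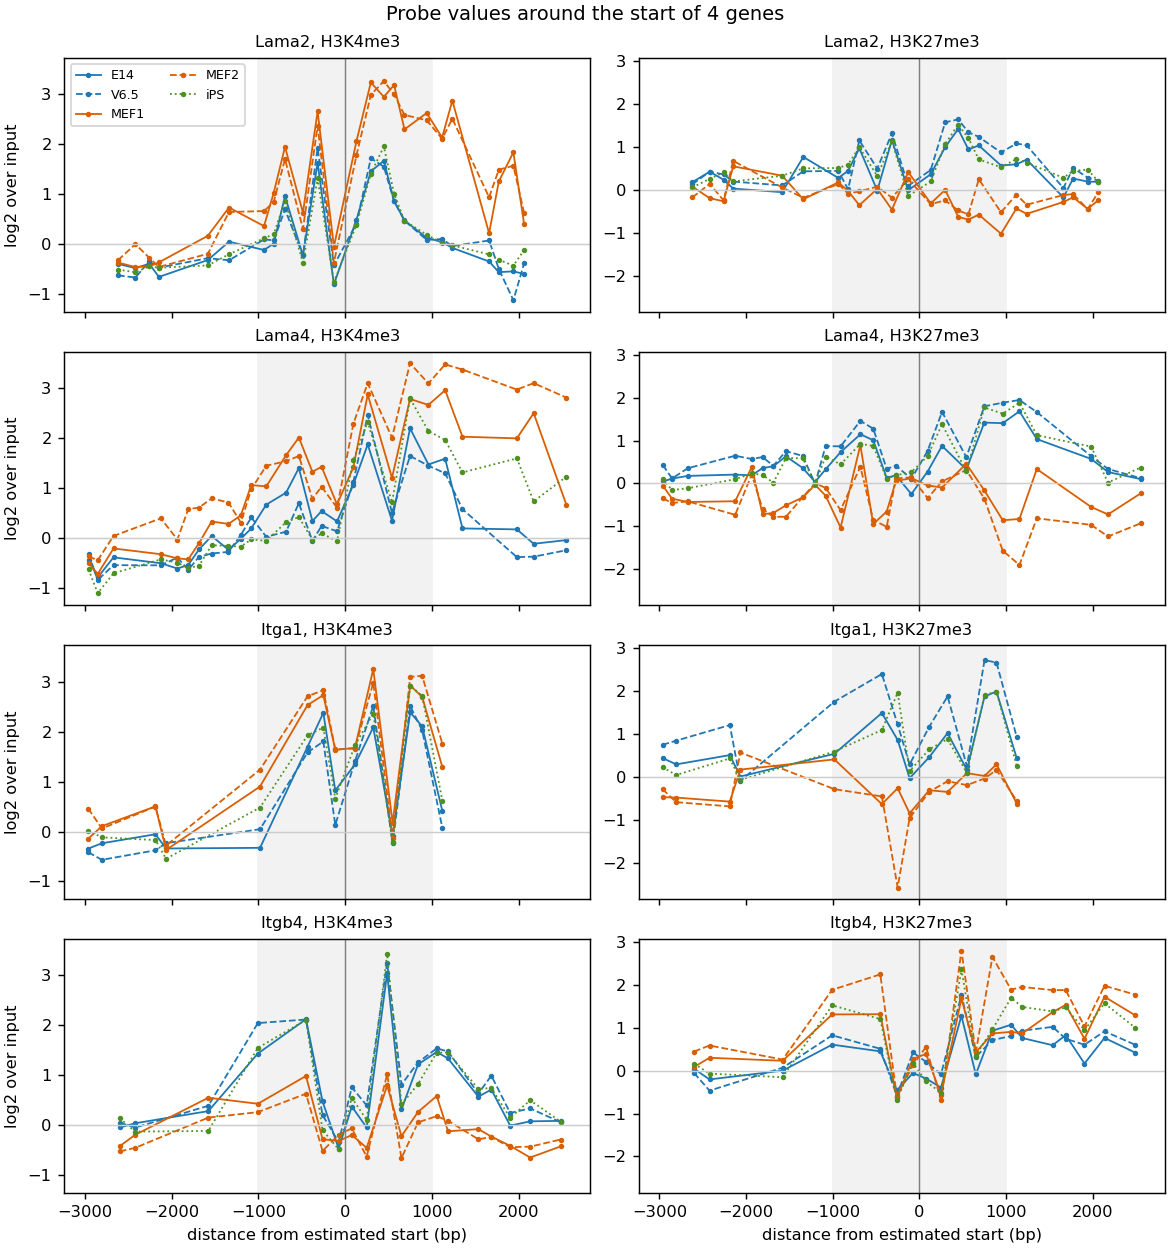
Log2 ratio of immunoprecipitate over input of each probe around the estimated start of Lama2, Lama4, Itga1 and Itgb4, for H3K4me3 (left) and H3K27me3 (right). The x axis is the distance from the start in bp, positive inside the gene, shading marks the window used for promoter values, and each line is 1 cell line. In Lama2 and Lama4 the MEF H3K4me3 signal stays high past 1000 bp, where the ES lines are near 0.

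At a log2 ratio of at least 1 in both lines, H3K4me3 was found on 11 of 33 promoters in ES cells, where 46.4% of all promoters had it, and on 13 in MEFs, where 48.8% did. In both cell types these were Itga1, Itga3, Itga6, Itga7, Itgav, Itgb1, Itgb5, Lamb1 and Lamc1. Lama1 was among those added in ES cells, and Itga4, Itga8, Lama2 and Lama4 were added in MEFs. The iPS line had the same 11 as the ES lines. Itga6, whose RNA was 18.9-fold lower in MEFs, was at 1.58 and 1.82 for H3K4me3 in the ES lines and 1.50 and 1.54 in the MEF lines.

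H3K27me3 at that level was on 2 promoters in both ES lines, where 2.67% of all promoters had it, and on 1 in both MEF lines, where 6.47% did. Lamc3, the gamma 3 chain of nerve and retinal laminins, carried it in all lines, at 1.14 in E14, 1.57 in V6.5, 1.48 in MEF1, 1.76 in MEF2 and 1.69 in the iPS line. Its RNA did not enter the tests. Itga7 carried it at 1.14 in E14, 2.16 in V6.5 and 1.50 in the iPS line, but at 0.22 in MEF1 and 0.58 in MEF2 (-1.25 ± 0.35, adjusted p = 0.0822 in limma). It was the only member with both marks at that level in both ES lines, and its probes lie between it and a divergently transcribed gene. Its H3K4me3 was 1.12 in both ES lines, 1.63 in MEF1, 1.67 in MEF2 and 1.40 in the iPS line.

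The Itgam promoter was below 0 for H3K4me3 in every line. It was at -0.59 and -0.53 in the ES lines, -0.69 and -0.62 in the MEF lines and -0.43 in the iPS line. Its H3K27me3 was 0.03 and 0.37 in the ES lines, 0.65 and 0.73 in the MEF lines and 0.37 in the iPS line. Itgad, Itgal and Itgax, further leukocyte alpha chains, were below 0 for H3K4me3 in both MEF lines. Itgam was thus higher in RNA with no H3K4me3 difference at its promoter, and RNA and chromatin were measured in separate samples.

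In the iPS line no member promoter was called against the ES lines for H3K4me3 or for H3K27me3, and 0% of all promoters were in either case. None of the 33 had an unadjusted p under 0.05 in limma for either mark. Against the MEF lines none was called for H3K4me3, where 0.992% of all promoters were, or for H3K27me3, where 0% were, with 7 and 11 members at an unadjusted p under 0.05. The difference at Lama2 was -1.29 ± 0.25 for H3K4me3 (adjusted p = 0.051 in limma) and 0.94 ± 0.17 for H3K27me3 (adjusted p = 0.103 in limma). With 1 iPS line these tests assume that it varies as the other lines do. Of 11 members whose ES and MEF means for H3K4me3 differed by at least 0.5, the iPS value was nearer to the ES mean for 10, and for H3K27me3 for 9 of 10. These counts were not made over all promoters. Over all promoters the iPS value for H3K4me3 lay a median of 0.15 from the ES mean and 0.26 from the MEF mean. For H3K27me3 these medians were 0.096 and 0.22.

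Between MEFs and ES cells the H3K4me3 difference followed the RNA difference across members. Over the 26 genes with both, Pearson's r was 0.72 and Spearman's rho 0.71 (across genes, which are not independent replicates), against 0.40 and 0.32 over 11358 genes with both values. Of 10 such genes called higher in MEFs by RNA, 9 had a positive H3K4me3 difference, the exception being Itgam. Of 7 called lower, 6 had a negative one, the exception being Itgae. Several of these were small, among them Itgb5 (0.06), Itga11 (0.12), Itgav (0.16), Itga3 (-0.06) and Lamc1 (-0.13). Over members, the median gap was 0.18 between the ES lines and 0.27 between the MEF lines. Signs were not counted over all genes for either mark. For H3K27me3 r was -0.47 and rho -0.49, against -0.34 and -0.29 over all genes. Of the 10 genes called higher, 8 had a negative H3K27me3 difference, and the exceptions were Itga8 and Itgam. Of the 7 called lower, 3 had a negative one, and the median difference of the 7 was 0.06. Genes share the arrays, and probe base composition can move both marks.

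**Figure D4:**
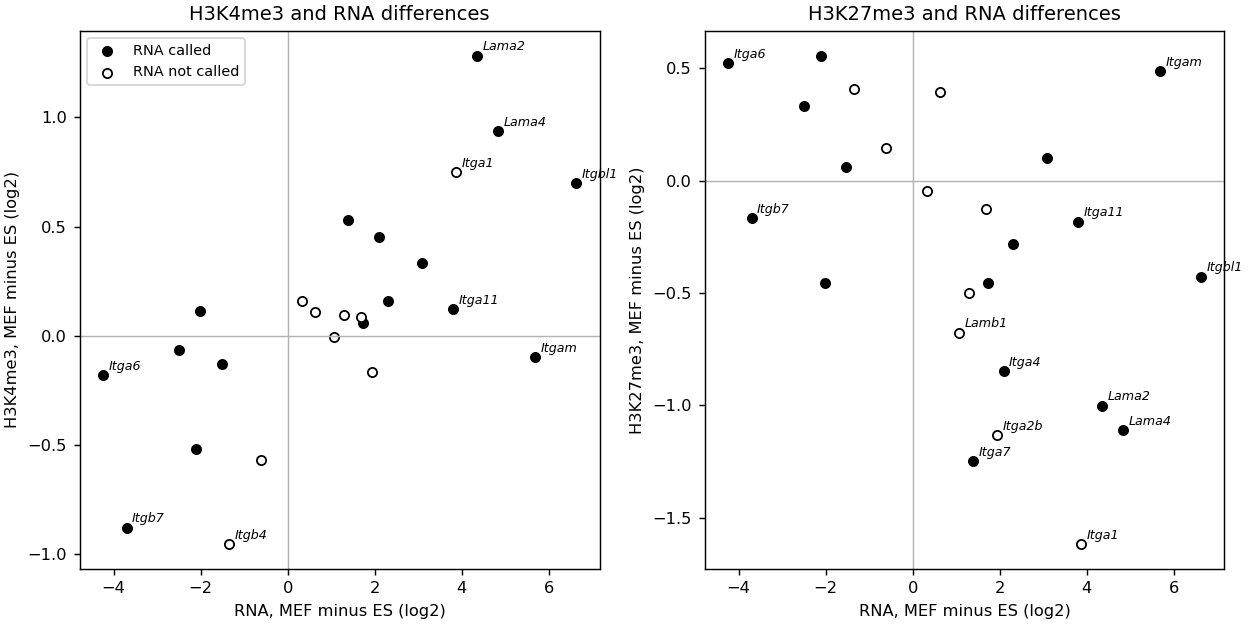
MEF minus ES differences of RNA (x axis, log2) against those of H3K4me3 (left) and H3K27me3 (right) at the promoter (y axis, log2), 1 point per gene for 25 genes. Filled points were called by RNA. Lama2 and Lama4 lie at the top right for H3K4me3 and at the bottom right for H3K27me3, and Itgam lies apart in both.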

How the data were processed

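The members and lists were chosen with earlier results of these data known. The 20 promoter arrays (2 arrays with different promoters for each mark and line, hence 1 replicate a line) and 6 expression arrays were deposited as Agilent intensity values, background-subtracted and dye-normalized by Feature Extraction per the file headers. The promoter value tables hold log10 ratios of Cy5 over Cy3, as deposited, and were not used for the values given. The expression values followed the deposited value table of intensity. The signals filed in the scanner files under ES and MEF are exchanged against it, and the scanner file of the duplicate iPS array is incomplete, so that this array took its background flags from the first iPS array. Per the label field, Cy5 held the immunoprecipitate. For MEF H3K27me3 the protocol text names Cy3 instead, and the label field was followed because all arrays of a mark correlated positively (lowest r between arrays of a mark 0.608).

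For promoters, log2 of Cy5 over Cy3 was median-centred per array without outlier spots, and averaged over at least 3 probes within 1000 bp of the start. For RNA, log2 intensity minus the 75th percentile was used, for probes above background (Agilent's flag) on the whole pair of a group, with the brightest probe for each gene. Where a group was below background, a bound ("at least") replaces the fold: the brighter group's mean against the higher of the dim probe and the dimmest signal well above background. All groups entered 1 limma fit per measure (limma 3.58.1, R 4.3.3, lmFit and eBayes), with Benjamini-Hochberg adjustment over all features, tested on simulated data. Sample values are given for members called in RNA, with lines apart, or with H3K27me3 at log2 1 or more in both lines of a type, and up to 4 called genes with the widest differences are named from each partner list. Other members and the promoters called without lines apart were chosen after their values were seen. The number of arrays limits the precision. Alternatives were normexp correction (offset 50), quantile normalization, no filter on dim probes, the mean of probes, the slide as a block, fits of 1 pair of groups, a 500 bp window, the median of probes, equal spread of the lines, and leaving out each replicate. Counts cover all members, while the values of 1 member are not reported here, in the text or in the figures.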

Additional observations from a re-analysis of the deposited data

How the results depend on the processing

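No called member reversed its direction in the alternatives run. Itga1 and Lama1 did where they were not called. The brightest probe was picked anew in each fit, and that of Itga1 changed without the duplicate iPS array. For Itga1, the difference of iPS cells from MEFs, -0.77, became 0.43 with quantile normalization and -6.04 to 2.91 with a replicate left out, and that from ES cells, 3.09, became -0.077 with normexp and quantile normalization and -1.01 to 6.77 with a replicate left out. For Lama1, the difference of iPS cells from MEFs, -0.73, became 0.052 with normexp and quantile normalization, 0.95 with quantile normalization alone and -1.50 to 0.045 with a replicate left out. No paired analysis was possible because the numbers in the promoter labels mark the 2 arrays of a set and the expression labels give only a duplicate. The expression arrays share slides, and with the slide as a block 19 RNA calls between MEFs and ES cells remained of 21 (Itga7 and Lamc1 were lost), 20 remained of 21 between iPS cells and MEFs (Itgb7 was added), and the count between iPS and ES cells was 0. The 21 RNA calls between MEFs and ES cells became 11 to 29 with a replicate left out. The 21 between iPS cells and MEFs became 13 with normexp and quantile normalization and 13 to 29 with a replicate left out. The count of 0 between iPS and ES cells became 6 in a fit of those arrays alone and 0 to 6 with a replicate left out. For H3K4me3 between MEF and ES lines, the 4 calls became 2 with 500 bp either side, 2 with the median of probes, 10 with normexp and 11 with lines scaled to equal spread, and 0 to 5 with a line left out. Between the iPS and MEF lines, 0 became 4 with normexp, 8 with equal spread and 0 to 1 with a line left out. For H3K27me3, the 6 calls became 3 with 500 bp, 3 with the median of probes, 19 with equal spread and 0 to 7 with a line left out, and against the iPS line 0 became 11 with equal spread. The 1 promoter whose lines stood at least 1 log2 unit apart for H3K4me3 became 0 with 500 bp and 2 with the median of probes, and for H3K27me3 0 with normexp, 3 with equal spread and 1 to 6 with a line left out. Counts over all features moved as well, also with a replicate left out. For H3K4me3 between MEF and ES lines, 777 of 15125 promoters became 3347 with normexp and 3090 with equal spread. For H3K27me3, 1858 became 5104 with equal spread. Between the iPS and MEF lines, equal spread called 3034 promoters for H3K4me3 and 2812 for H3K27me3. The fit of the iPS and ES expression arrays alone called 2736 of 16573 genes. The cause of these changes was not tested. Dim probes limit Itgae, Itgam, Itgbl1, Lama2 and Lama3 to bounds.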
